A study of Mus musculus with 6 samples.

Results

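The genes examined here mark the subtypes of adipocyte progenitors, the stromal cells of fat from which new adipocytes arise. There are 10 of them among the 19831 genes listed for inguinal adipose tissue (iAT), found by symbol from a list of known markers: *Dpp4*, *Pi16*, *Cd55*, *Ly6a*, *Anxa3* and *Dpt* for interstitial progenitors, *Icam1* for committed preadipocytes, and *F3*, *Clec11a* and *Fmo2* for regulatory stromal cells. RNA sequencing compared iAT of 3 wild-type (WT) samples with 3 samples that lack *Npffr1*, the gene of neuropeptide FF receptor-1 (labelled KO, here Npffr1-KO), all at postnatal day 6, kept under specific-pathogen-free conditions and with total RNA extracted by TRIzol. The study's methods describe its young mice as male and of the C57BL/6 strain, without naming these samples. The nature of the deleted allele and whether a sample was 1 animal or a pool are not given for these samples in the sources used here.

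Fat tissue keeps a hierarchy of fibroblast-like progenitors. Interstitial progenitors lie in the connective tissue sheath around the fat lobules and express the surface peptidase DPP4. They give rise to committed preadipocytes, which carry the adhesion molecule ICAM1 and lie within the lobules, close to adipogenic differentiation. A further population, the regulatory stromal cells, is marked by coagulation factor III (encoded by *F3*) and has been described as restraining the adipogenesis of neighbouring cells.

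The authors deposited 1 value per gene and genotype on the scale of read counts normalized for library size, and values are given here in such normalized counts. The 2 values of a gene are not the means of its libraries. Their mean is that of the normalized counts over all 6 libraries, but in low genes, where this could be checked, the values of the genotypes are drawn together: *Ckm* was deposited at 27.51 in WT and 46.35 in Npffr1-KO, where its reads gave means of 2.28 and 71.6. Over 292 low genes the deposited log2 ratio was 0.48 of that from the reads (slope). How far the values of the 10 progenitor genes are drawn together is not known, so that their ratios describe the deposited values. The values carry no SD or counting interval, and no test between the genotypes was made. Summed over all genes they came to 23137343 normalized counts in WT and 23640005 in Npffr1-KO, with size factors of the 6 libraries between 0.916 and 1.038. The tissue showed its defining markers: the adipocyte genes *Car3*, *Cfd* and *Adipoq* had 261767, 92905 and 37027 normalized counts in WT. *Npffr1* itself was too low to check the labels well. As for other low genes, its whole reads in each library could be worked out: the WT libraries held 1, 0 and 5, and each of the 3 Npffr1-KO libraries held 0, where a count of 0 allows up to 3 reads per library. A single Npffr1-KO library stood apart in skeletal muscle genes, with 215 reads of the muscle creatine kinase gene *Ckm*, where the other libraries of its genotype held 1 and 6 and those of WT 2, 3 and 2. It also held 52 reads of *Actn3*, against 11 and 17 in its genotype and 15, 6 and 22 in WT; *Actn3* was named after its values were seen. The values of the 10 progenitor genes cannot be given without this library, and its part in them was not tested.

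Genes that averaged 10 or more normalized counts over the genotypes, 15309 in all and here called measured genes, include all 10 progenitor genes. A ratio of 5 to 4 in either direction, 0.3219 on the log2 scale, served as the threshold for a difference. Of the 10 genes, 9 stayed within it. The exception was *F3*, at 1.41-fold its WT value in Npffr1-KO. The threshold was reached by 23.7% of the measured genes in either direction, by 12.0% with the higher value in Npffr1-KO and by 11.6% with the lower. The count among the progenitor genes, 1 of 10, lay below the share in either direction. Its 1 gene was higher in Npffr1-KO, and 1 of 10 lies near the 12.0% of measured genes that were higher. The progenitor genes averaged between 132 and 14778 normalized counts, whereas measured genes start at 10, so the 2 sets are not of like level. The median log2 ratio of Npffr1-KO over WT was 0.03 for the progenitor genes and 0.01 for all measured genes. The median size of the log2 ratio, whatever its sign, was 0.12 for the progenitor genes and 0.18 for all measured genes.

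**Figure D1:**
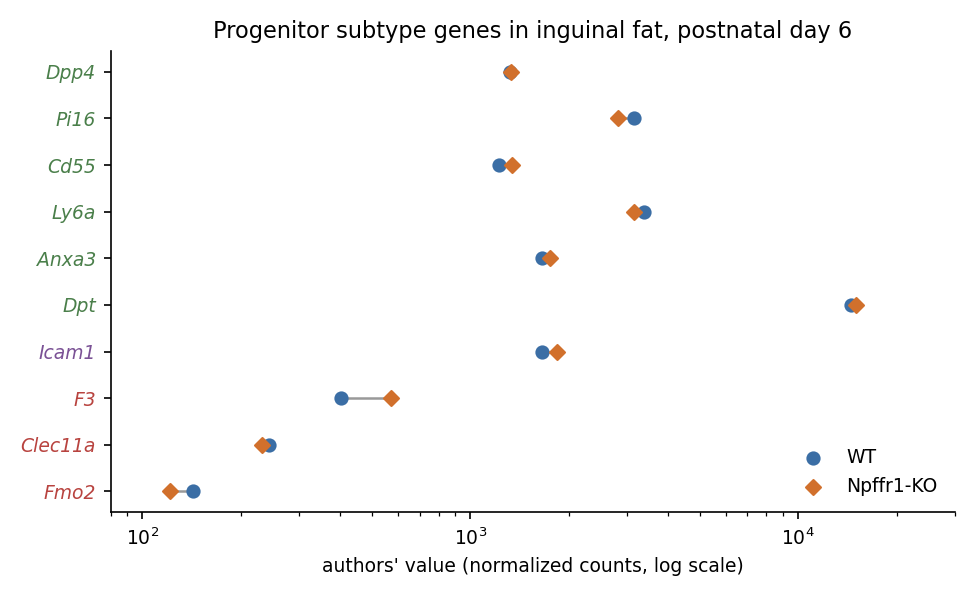
The authors' values (x axis, normalized counts, log scale) of the 10 progenitor genes in WT (circles) and Npffr1-KO (diamonds), 1 pooled value per genotype; gene names are green for interstitial progenitors, purple for committed preadipocytes and red for regulatory stromal cells. The values span from 121 normalized counts for *Fmo2* to 15027 for *Dpt*, and the pair of *F3*, at 405 and 572, is the one drawn farthest apart.

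*F3* encodes tissue factor, the cell-surface starter of the coagulation cascade, known on stromal cells as CD142. It had 405 normalized counts in WT and 572 in Npffr1-KO. The value of Npffr1-KO was higher by 168 normalized counts, a log2 ratio of 0.50 (1.41-fold). This log2 ratio exceeded that of 95.6% of the measured genes, and its size exceeded that of 90.9% of them. The measured genes include low genes, whose deposited values are drawn together, and how far this moves these shares was not tested. The plus strand of chromosome 3 carries the gene (Entrez 14066), at 121723537 to 121735048 in GRCm38. None of the 31-base sequences of its transcripts in GENCODE M21 occurs in another annotated gene. How the 6 libraries contribute to the difference is not known.

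Neither of the other regulatory stromal markers was higher in Npffr1-KO. *Clec11a* encodes a secreted lectin, also named osteolectin, which acts as a growth factor for bone-forming stromal cells. Its 244 normalized counts in WT stood against 232 in Npffr1-KO, a log2 ratio of -0.07 (0.951-fold). *Fmo2* encodes a flavin-containing monooxygenase of the endoplasmic reticulum. At 143 normalized counts in WT and 121 in Npffr1-KO it was the lowest of the 10 genes, with a log2 ratio of -0.23 (0.851-fold). Centred on genes of like length, by subtracting their median, the log2 ratio of *Clec11a* was -0.15. Within each genotype, the ratio of *F3* to *Clec11a* per gene length was 1.74 in WT and 2.59 in Npffr1-KO, and that of *F3* to *Fmo2* was 5.05 and 8.39.

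Of the 3 regulatory stromal markers, 1 lay past the threshold and 2 within it, beside 23.7% of all measured genes past it. The 250 bases before the RefSeq transcription starts of these 3 genes (GRCm38.p6) are shown as a description. A link between these sequences and the ratios was not tested. They run 5′ to 3′ on the strand of the gene, without any transcribed base. *F3* lies at chr3:121723287-121723536 on the plus strand, *Clec11a* at chr7:44306960-44307209 on the minus strand, and the outer of 2 starts of *Fmo2* at chr1:162898759-162899008 on the minus strand. Capitals mark matches, on either strand, to the GC box GGGCGG, the AP-1 motif TGANTCA, the CCAAT box CCAAT and the TATA box TATAAA.
F3: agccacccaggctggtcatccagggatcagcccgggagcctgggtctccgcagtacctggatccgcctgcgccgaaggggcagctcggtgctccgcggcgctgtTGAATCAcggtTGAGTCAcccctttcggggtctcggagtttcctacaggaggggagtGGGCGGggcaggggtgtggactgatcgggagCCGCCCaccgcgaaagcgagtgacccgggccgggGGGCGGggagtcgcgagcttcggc
Clec11a: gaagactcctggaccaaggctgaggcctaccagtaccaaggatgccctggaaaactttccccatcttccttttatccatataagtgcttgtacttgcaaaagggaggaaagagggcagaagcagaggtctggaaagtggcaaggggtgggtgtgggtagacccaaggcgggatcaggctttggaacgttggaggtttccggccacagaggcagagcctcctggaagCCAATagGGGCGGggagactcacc
Fmo2: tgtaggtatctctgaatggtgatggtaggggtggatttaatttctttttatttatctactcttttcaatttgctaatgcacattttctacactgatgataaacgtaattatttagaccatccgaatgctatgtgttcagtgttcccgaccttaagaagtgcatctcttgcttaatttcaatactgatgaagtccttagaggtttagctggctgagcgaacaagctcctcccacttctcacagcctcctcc

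The *F3* window held 2 AP-1 matches, which start 146 and 135 bases before the transcription start, and 3 GC boxes. Of the 32851 windows of this length in the RefSeq table, 6.75% held an AP-1 match, 32.7% a GC box, 33.8% a CCAAT box and 12.4% a TATA box. The *Clec11a* window held 1 GC box and 1 CCAAT box, separated by a pair of bases. Both *Fmo2* windows were without any of these letters. GC content was 70.0% for *F3*, 55.6% for *Clec11a* and 39.6% for the *Fmo2* window shown, beside a median of 52.4% over all windows. Windows were given for 8 of the 10 genes, not for *Ly6a* and *Anxa3*. Among the 8, *F3* was the only one with an AP-1 match, *Cd55* held 2 GC boxes, *Icam1* held 1, *Dpp4* held a TATA box match 227 bases before the start, *Pi16* held 1 CCAAT box and *Dpt* held none of the letters searched. A match says that these letters stand in the window and is no sign of a factor bound there.

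The 6 interstitial progenitor markers all stayed within the threshold, 4 with a ratio above 1 and 2 below, and a median log2 ratio of 0.03. With each ratio centred on genes of like length, all 6 still stayed within the threshold, but 2 had a ratio above 1 and 4 below, and the median was -0.055. *Dpp4*, the gene of the surface peptidase CD26 that defines these cells, had 1323 normalized counts in WT and 1334 in Npffr1-KO. Its log2 ratio was 0.01 (1.01-fold), and only 4.0% of the measured genes had one of smaller size, but centred on genes of like length it was 0.12. *Pi16*, the gene of peptidase inhibitor 16, which also marks fibroblasts of the outer vessel wall, had 3154 normalized counts in WT and 2812 in Npffr1-KO, the lowest deposited ratio among the interstitial markers. Its log2 ratio of -0.17 (0.892-fold) was still smaller in size than that of most genes, as 47.3% of them had a smaller one and the rest a larger one. Centred on genes of like length it was -0.22, and *Ly6a* was then lower, at -0.31.

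*Ly6a* encodes the surface protein Sca-1, long used to sort stromal and blood stem cells and also present on endothelium and lymphocytes. It had 3391 normalized counts in WT and 3159 in Npffr1-KO, a log2 ratio of -0.10 (0.932-fold). Centred on genes of like length it was -0.31, close to the threshold. *Cd55* encodes decay-accelerating factor, which shields cells from complement. With 1219 normalized counts in WT and 1337 in Npffr1-KO its log2 ratio was 0.13 (1.1-fold). *Anxa3*, the gene of the calcium-dependent membrane binder annexin A3, had 1657 normalized counts in WT and 1747 in Npffr1-KO, a log2 ratio of 0.08 (1.05-fold). *Dpt* encodes dermatopontin, a matrix protein that binds decorin and collagen fibrils and is made by many fibroblasts. It was by far the highest, with 14529 normalized counts in WT and 15027 in Npffr1-KO, a log2 ratio of 0.05 (1.03-fold). With the same centring the log2 ratios of *Anxa3* and *Dpt* turned to -0.04 and -0.07. The sides of 1 on which interstitial markers lay thus depended in part on this centring.

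In GRCm38, the annotation places *Dpp4* (Entrez 13482) at chr2:62330073-62412231 (minus), *Pi16* (Entrez 74116) at chr17:29317680-29330593 (plus) and *Cd55* (Entrez 13136) at chr1:130439027-130462744 (minus). Next come *Ly6a* (Entrez 110454) at chr15:74994877-74998031 (minus), *Anxa3* (Entrez 11745) at chr5:96793339-96845966 (plus) and *Dpt* (Entrez 56429) at chr1:164796644-164824266 (plus). The remaining genes are *Icam1* (Entrez 15894) at chr9:21015985-21028817 (plus), *Clec11a* (Entrez 20256) at chr7:44302687-44306902 (minus) and *Fmo2* (Entrez 55990) at chr1:162874317-162898726 (minus). The 10 genes thus lie on 8 chromosomes, with *Cd55*, *Dpt* and *Fmo2* all on chromosome 1.

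Some of these values depend on how reads shared with related genes were assigned. Of the 31-base sequences in annotated *Ly6a* transcripts, 31.9% also occur in other genes, mostly in *Ly6c1* (21.9%). *Ly6c1*, a neighbouring member of the same family, had 4238 normalized counts in WT and 4179 in Npffr1-KO. For *Cd55* the share was 11.4%, nearly all of it with its neighbour *Cd55b* (11.2%). *Cd55b* was close to silent, with 2, 1 and 5 reads in the libraries of WT and 9, 4 and 1 in those of Npffr1-KO, so that its groups overlapped and few reads of *Cd55* can have been placed on this copy. Its mean difference of 1.98 normalized counts was -0.0602 without the Npffr1-KO library of 9 reads. The share was 4.08% for *Pi16*, 3.50% for *Icam1*, 2.59% for *Anxa3* and at most 0.0355% for the other members.

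*Icam1* was the marker of the committed preadipocyte. It encodes the ligand of leukocyte integrins, and endothelium and immune cells express it as well. It had 1657 normalized counts in WT, the same as *Anxa3*, and 1832 in Npffr1-KO, a log2 ratio of 0.15 (1.11-fold). The ratio of *Pi16* to *Icam1* per gene length, a comparison of an interstitial with a committed marker, was 2.15 in WT and 1.74 in Npffr1-KO. For *Dpp4* to *Icam1* it was 0.387 and 0.353. Both ratios were lower in Npffr1-KO, but they share *Icam1*, so that they are not 2 separate observations. As deposited, the log2 ratio of *Icam1* was above that of every interstitial marker, the highest of which was 0.13. Any interstitial marker set against *Icam1* would thus give a lower ratio from these values. Centred on genes of like length, *Icam1* had a log2 ratio of 0.115 and *Dpp4* one of 0.121, so for *Dpp4* this order did not hold. Whether the ratios differ by more than the spread between samples could not be tested.

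**Figure D2:**
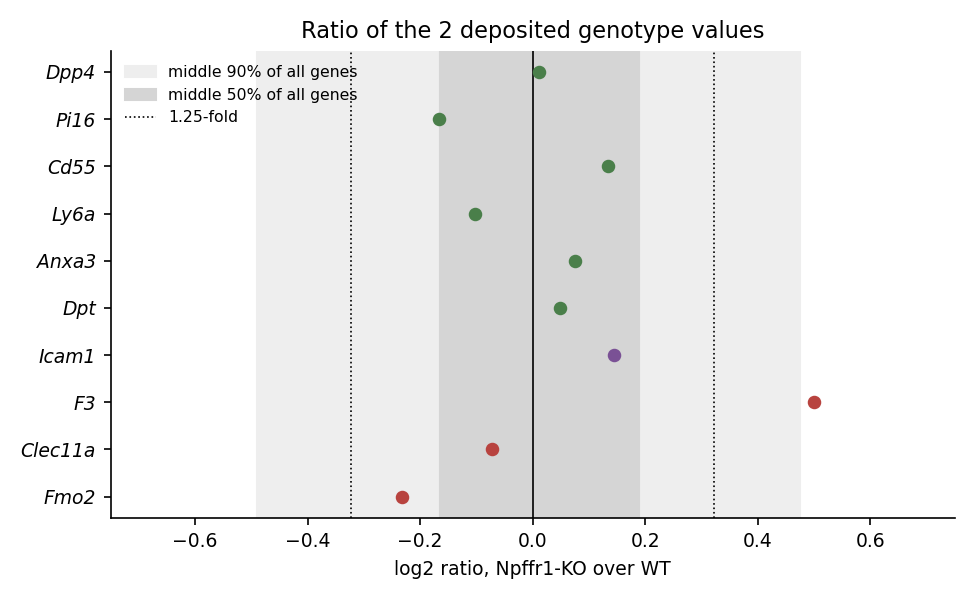
Log2 ratio of the Npffr1-KO value over the WT value (x axis) for the 10 progenitor genes (points), from the deposited values and without an error. Dark and light grey bands hold the middle 50% (-0.16 to 0.19) and the middle 90% (-0.49 to 0.48) of the measured genes, and dotted lines mark the threshold of 0.32; *F3* lies outside the wider band and the dotted lines, *Pi16* and *Fmo2* just outside the narrower band, and the other 7 genes within it.

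The order of the genes by level was compared within each genotype, with each value divided by the listed gene length and scaled to the same sum in each genotype. On this scale *Dpt* was highest in WT at 791, followed by *Ly6a* at 315, *Pi16* at 125, *Anxa3* at 91.2, *Icam1* at 58.1, *Cd55* at 42.9, *Dpp4* at 22.5, *F3* at 19.2, *Clec11a* at 11.03 and *Fmo2* at 3.81. *Dpt* thus lay 208-fold above *Fmo2*. The order was the same in Npffr1-KO but for 1 exchange: *F3*, at 24.8, stood above *Dpp4*, at 20.7. These neighbours lay close together in both genotypes, and no spread between samples is known for either, so that neither order can be told from the other. The scaling itself shifted the log2 ratio of every gene by -0.13, and differences between the genotypes were therefore not read from it.

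Of the length-scaled sum of the 10 genes, the interstitial markers held 93.8% in WT and 93.0% in Npffr1-KO, of which *Dpt* was the larger part. Without *Dpt* the other 5 held 40.3% and 38.2% of that sum. *Icam1* held 3.93% and 4.30%, and the 3 regulatory stromal markers 2.30% and 2.74%. Because iAT was sequenced as bulk tissue, a change in the number of cells of a subtype and a change in the RNA per cell cannot be told apart in any of these values.

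Further genes of the same subtypes were examined, taken from lists of markers and counted against the same threshold. Of 16 other interstitial progenitor genes, 13 had a ratio below 1, as had 7474 of the 15309 measured genes. In the further lists below, 7 of 8 other regulatory stromal genes had a ratio below 1. So had 7 of 10 genes shared by stromal cells at large and 7 of 13 other committed preadipocyte genes. Ratios below 1 were thus not particular to the interstitial genes. The median log2 ratio of the 16 genes was -0.18, beside 0.03 for the 6 markers above and 0.01 for all measured genes. Past the threshold there were 2 lower and 1 higher. The highest in level were the microfibril gene *Fbn1*, with 12633 normalized counts in WT and 10525 in Npffr1-KO, *Fndc1*, with 4298 and 3691, and the endosialin gene *Cd248*, with 4179 and 3869. Their log2 ratios were -0.26, -0.22 and -0.11, so each of these stayed within the threshold. The members past it were *Limch1* and *Sema3c*, with log2 ratios of -0.43 and -0.38, and *Smpd3* with 0.60; these 3 were named after their values were seen.

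Of 14 other committed preadipocyte genes, 13 were measured genes, with 3 higher and 2 lower past the threshold and a median log2 ratio of -0.10. The most abundant were the lipid-binding *Fabp4*, with 156285 normalized counts in WT and 173188 in Npffr1-KO, the lipoprotein lipase gene *Lpl*, with 136814 and 146170, and the basement membrane collagen gene *Col4a1*, with 94407 and 79307. All of these are also made by adipocytes or vessels. *Pparg*, the adipogenic master regulator, was among those higher, with 3864 and 5098 normalized counts and a log2 ratio of 0.40, and *Apod* had the lowest log2 ratio of the list, -0.73; both were named after their values were seen.

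Of 9 other regulatory stromal genes, 8 were measured genes. None was higher past the threshold, 2 were lower (*Vit* and *Cpe*), and the median log2 ratio was -0.16. The most abundant were the proteoglycan gene *Bgn*, with 21764 normalized counts in WT and 20003 in Npffr1-KO, *Igfbp3*, with 6279 and 5052, and the carboxypeptidase gene *Cpe*, with 3559 and 2756. The higher value of *F3* in Npffr1-KO was thus accompanied by higher values of 1 of these 8 genes, *Gdf10*, with 647 and 761 normalized counts and a log2 ratio of 0.23. *Vit*, with a log2 ratio of -0.67, and *Gdf10* were named after their values were seen. Of 10 genes shared by stromal cells at large, 1 was higher and 1 lower past the threshold, with a median log2 ratio of -0.10. The filament gene *Vim* and the actin-severing *Gsn* had log2 ratios of 0.02 and -0.03, and the proteoglycan gene *Dcn* one of -0.30, from 23689 to 19239 normalized counts. *Pdgfra*, the receptor gene that marks all adipocyte progenitors, had 1894 and 1467 normalized counts and a log2 ratio of -0.37, and *Thy1*, which is shared with T cells, one of 0.61; both were named after their values were seen.

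**Figure D3:**
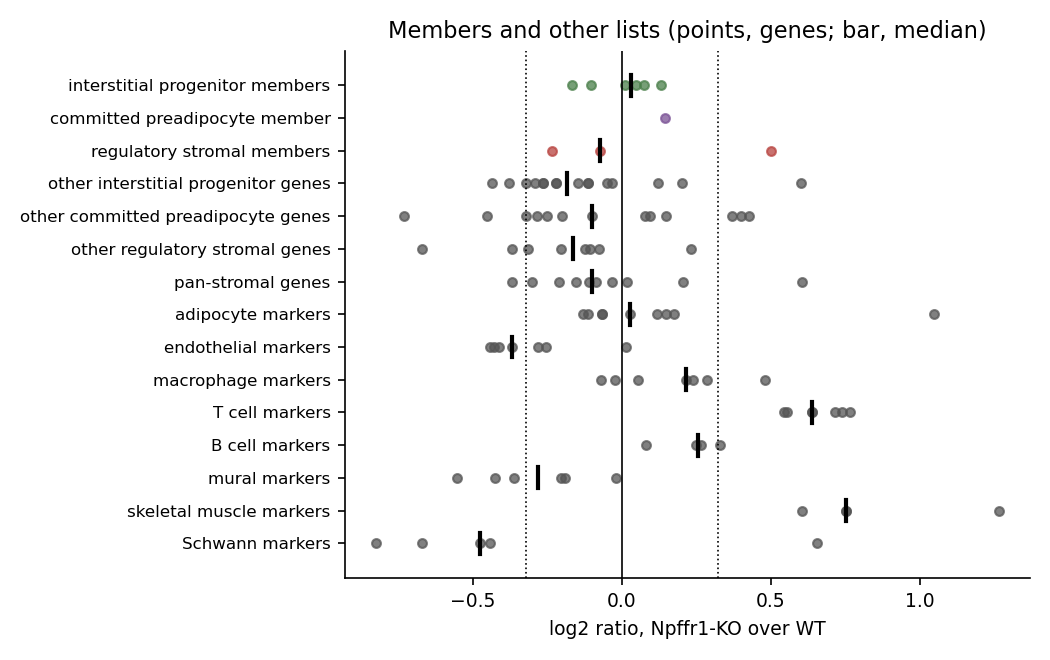
Log2 ratios of Npffr1-KO over WT (x axis) of single genes (points) in each list with at least 3 measured genes, and in the 3 groups of progenitor markers; black bars are medians and dotted lines the threshold of 0.32. The interstitial markers cluster near 0 with a median of 0.03, *F3* stands apart from the other regulatory stromal genes, and T cell markers (median 0.64) and endothelial markers (median -0.37) lie on opposite sides.

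Markers of other cells that also express some of the 10 genes were counted in the same way. All 7 T cell markers were higher in Npffr1-KO past the threshold, with a median log2 ratio of 0.64 and a summed level of 7304 normalized counts in WT and 11532 in Npffr1-KO. Among them *Lck* had 1675 and 2798 normalized counts, *Cd4* 1514 and 2209, and *Cd3g* 1112 and 1891. T cells are known to carry DPP4, CD55 and Sca-1. Of 7 endothelial markers, 4 were lower past the threshold and none higher, with a median of -0.37. Centred on genes of like length this median was -0.30, within the threshold. The summed level was 68753 in WT and 54510 in Npffr1-KO, led by *Cdh5* (23029 and 17863), *Pecam1* (18487 and 15218) and *Cldn5* (8950 and 6593). Endothelium expresses *Ly6a* and *Icam1*. Of 7 macrophage markers, 1 was higher past the threshold, with a median of 0.22, or 0.03 centred on genes of like length, and a summed level of 13107 and 14226. This count lies near the share of all measured genes that were higher. *Csf1r* had 4594 and 4379 normalized counts, *C1qa* 2871 and 3389, and *C1qb* 2096 and 2437. Monocytes and macrophages can express *F3* and *Icam1*. No marker of these 3 lists was at 0 in either genotype, but a deposited value above 0 does not show that reads were present. The mesothelial gene *Msln* held 0 reads in each Npffr1-KO library and was deposited at 1.68 there. The part of these cells in the values of the progenitor genes was not tested.

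Whole reads of each library followed from the deposited values for low genes alone, and for none of the 10 progenitor genes. Of the further subtype genes, 3 could be resolved. *Cxcl14*, a chemokine gene of committed preadipocytes, had 12, 19 and 19 reads in WT and 22, 9 and 37 in Npffr1-KO. After normalization this was 16.3 ± 4.12 in WT and 23.6 ± 15.8 in Npffr1-KO (SD, n = 3), and the groups overlapped. *Stmn4*, an interstitial progenitor gene, had 13, 10 and 32 reads in WT and 26, 26 and 13 in Npffr1-KO, or 18.03 ± 11.97 and 21.8 ± 6.64 normalized counts (SD, n = 3), again with overlap. *Rspo2*, a regulatory stromal gene of the Wnt pathway, had 1, 0 and 0 reads in WT and 0, 5 and 4 in Npffr1-KO. The mean difference of *Stmn4*, 3.79 normalized counts, was 10.7 without the WT library of 32 reads and -0.33 without the WT library of 10 reads. That of *Cxcl14*, 7.20 normalized counts, was -1.21 without the Npffr1-KO library of 37 reads and 14.4 without that of 9 reads. For *Rspo2* it was 2.81, between 1.86 and 4.38 with 1 library left out. *Cxcl14*, *Stmn4* and *Rspo2* were named because their reads could be resolved. At this depth a single library could set the direction of such low genes, and the 10 progenitor genes cannot be examined in this way.

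**Figure D4:**
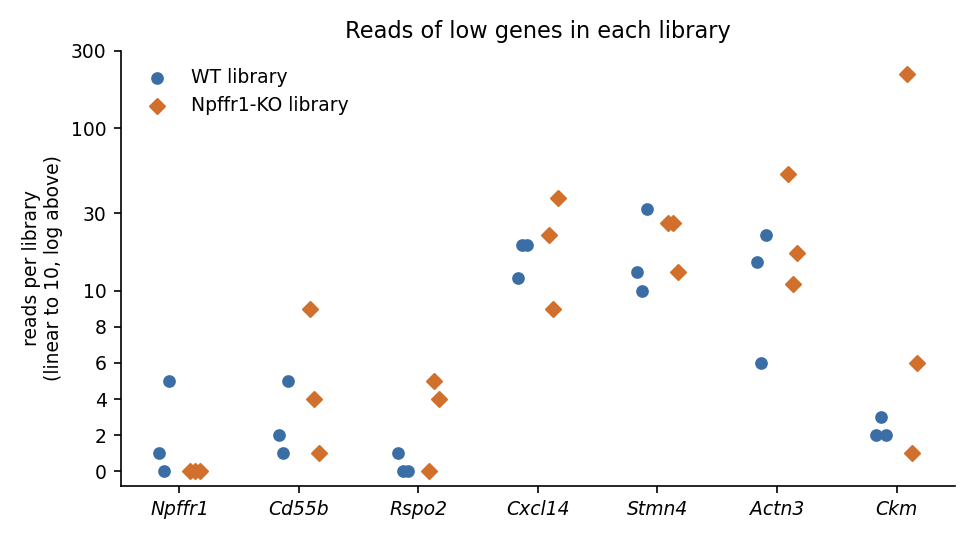
Reads per library (y axis, linear up to 10 and logarithmic above) of low genes in the 3 WT libraries (circles) and the 3 Npffr1-KO libraries (diamonds), worked out from the deposited values. The genotypes overlap for *Cd55b*, *Rspo2*, *Cxcl14*, *Stmn4*, *Actn3* and *Ckm*, and 1 Npffr1-KO library holds 215 of the *Ckm* reads while the other 2 hold 1 and 6. *Npffr1* has 1, 0 and 5 reads in WT and 0 in each Npffr1-KO library, so that the genotypes share the value 0.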

How the data were processed

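The authors deposited, for each gene and genotype, 1 signal value on the scale of read counts normalized for library size. The submitters' processing notes name Bowtie2, RSEM and DESeq2, without versions, and the sources used here give no genome build or annotation. Gene length in bases is as listed. The authors' own fold changes and p-values are also in the tables and were not used, and a shorter table that repeats 90 of the genes was left out. The depth per library is not listed. The study's methods name no test for this comparison.

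The log2 ratio of both deposited signal values was computed for genes with a mean of at least 10. Members and lists were chosen with earlier results of these data known. Named genes are the 10 members, *Npffr1*, copies that share sequence with a member, and the 3 genes of highest mean in each other list; names outside this rule are marked. Some genes and lists under this rule are not reported here. Groups were taken from the sample titles. Whether the samples came from separate animals is not stated.

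Single-read genes, 585 in number, take 6 distinct values, which give the size factors, and the genotype column that is higher gives the genotype of each library. Libraries could not be tied to sample numbers. Whole reads were sought that match 3 times the sum of both values within 15 significant digits, where fewer than 0.05 combinations were expected by chance; 14 of 15 low list genes had exactly 1 solution. Tested on simulated data of 59 genes with known reads, 100% were solved correctly. For 292 low genes the deposited log2 ratio was 0.48 of that from the reads (slope), so the deposited values of low genes are drawn together, and how far this holds for the members is not known. Alternatives were pseudocounts of 1 and 10, other folds and minimums, and centring on the median gene or on genes of like length in 20 classes. Places and shared 31-base sequences came from GENCODE M21 (GRCm38), promoters from RefSeq. Python 3.11.15, numpy 2.4.6, pandas 2.3.3, scipy 1.17.1 and matplotlib 3.10.9 were used.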

Additional observations from a re-analysis of the deposited data

How the results depend on the processing

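The count of progenitor genes past the threshold was 4 at a fold of 1.1, 0 at a fold of 1.5, and 1 with centring on the median gene or on genes of like length. *F3* kept its direction in all 4 alternatives for its log2 ratio, between 0.42 and 0.50. Of the 40 log2 ratios of members under alternatives, 2 had the other sign, those of *Anxa3* (-0.04) and *Dpt* (-0.07) centred on genes of like length. The log2 ratios of *Dpp4*, *Pi16*, *Ly6a* and *Clec11a* became 0.12, -0.22, -0.31 and -0.15 there, and the macrophage and endothelial medians 0.034 and -0.303. With that centring the median log2 ratio was -0.055 for the interstitial markers and for all 10 genes, -0.072 for the other committed preadipocyte genes and -0.25 for the other regulatory stromal genes; the cause was not tested. With a minimum mean of 50 the median of the other committed preadipocyte genes was -0.15, and with a minimum mean of 1 that of the other regulatory stromal genes was -0.12, since the genes entering the median change. No member could be resolved into reads per library, also with a tolerance 10 times wider, so that leaving out a library was possible for low genes only. No paired analysis was possible because the columns carry no replicate numbers. Without values per library, the spread between samples limits every ratio of the 10 genes by an unknown amount.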

Other observations

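Markers of further cells in iAT were counted in the same way. All 6 mural cell markers had a ratio below 1, 3 of them past the threshold, with a median log2 ratio of -0.28 and a summed level of 36953 normalized counts in WT and 30059 in Npffr1-KO. *Rgs5*, *Notch3* and the smooth muscle myosin gene *Myh11* had log2 ratios of -0.19, -0.42 and -0.55. The adipocyte list had a median of 0.03, with 1 of 9 genes past the threshold, and *Car3*, *Cfd* and *Adipoq* at 0.12, -0.13 and -0.07. Of the keratinocyte and the mesothelial markers, 1 each was a measured gene, *Krt10* with a log2 ratio of -0.13 and *Lrrn4* with 0.57. The mesothelial marker *Wt1* was not analysed here.

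The 4 skeletal muscle markers among the measured genes were all higher in Npffr1-KO past the threshold, with a median log2 ratio of 0.75 and *Acta1*, *Tnnt3* and *Ckm* at 1.26, 0.75 and 0.75. From the reads per library, the mean difference of *Ckm* was 69.3 normalized counts, and 1.49 without the Npffr1-KO library of 215 reads. That of *Actn3* was 12.5, and 0.76 without the same library, which held 52 of its reads. This library also held 21 reads of the keratinocyte gene *Krt5* and 11 of *Krt14*. The other libraries of its genotype held 0 and 0 of *Krt5* and 1 and 1 of *Krt14*. In WT the reads were 0, 0 and 11 of *Krt5* and 0, 0 and 6 of *Krt14*. *Lrrn4* had 42, 27 and 26 reads in WT and 63, 37 and 45 in Npffr1-KO, and its groups overlapped. For *Msln*, another mesothelial gene, 1, 6 and 8 reads lay in the libraries of WT and 0 in each of Npffr1-KO. *Actn3*, *Krt5*, *Krt14* and *Msln* were named after their values were seen.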
